A study of Mus musculus with 3 samples.

Results

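The nuclei described here came from a mouse sympathetic ganglia library and were selected for C7, Epha3 and related genes, under the working name C7 and Epha3 fibroblast nuclei. A nucleus was selected when it had UMIs (unique molecular identifiers, 1 per captured RNA molecule) in at least 2 of 6 identity genes, C7, Epha3, Itgbl1, Sfrp4, Col14a1 and Adamts3, and at least 1 UMI of Col1a2, Col3a1, Dcn or Pdgfra. It could have at most 1 of Scara5, Dpep1, Lvrn, Nox4 and Pcolce2, called the Scara5 set below, and no UMI of Adipoq, Pecam1, Ptprc or Dbh, which mark adipocytes, endothelial cells, leukocytes and noradrenergic neurons. The rule found 94 of the 4509 kept ganglia nuclei, or 2.08% (exact binomial 95% interval 1.69% to 2.55%). Clustered without the rule's genes, these 94 nuclei did not form 1 group: 52 lay in a stromal cluster led by Sult5a1, Sned1 and Il33, 32 lay in a cluster led by Cdh12, Muc16, Gpm6a and Wt1, and 10 were spread over 4 other clusters. The first group had the higher summed level of fibrillar collagen genes, and the second carried mesothelial markers. C7 and Epha3 UMIs were found together in 16 of the 52 and 5 of the 32 nuclei. A nucleus without a UMI of a gene may still express it, so these counts do not show absence. Of the 726 C7 UMIs, 704 lay in the 52 nuclei and 15 in the 32, so the working name did not describe both groups alike. Both groups are called here by their leading genes.

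The series holds 3 mouse libraries. Skin cells selected with CD45 beads came from mice given RHS and MC903 and, as the control, from mice given MC903. The ganglia library holds nuclei of sympathetic ganglia, abbreviated by the submitters as SCG, STG, T2-T4 and CG, pooled from 30 mice. RHS is not spelled out in the labels, and MC903 is a vitamin D analogue that inflames mouse skin. The ganglia sample's description gives RHS and MC903 as the treatments, while its preparation text gives MC903, and its title says skin where its tissue label says sympathetic ganglia. Neither strain nor age of the mice is in the labels. There was no ganglia library without RHS, so no effect of treatment could be measured in these nuclei.

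Fibroblasts in and around ganglia and nerves build the connective tissue that wraps the neurons: they secrete fibrillar collagens, microfibrils and proteoglycans, and enzymes that trim and crosslink these fibres. C7 is a late complement component that takes part in the membrane attack complex, EPHA3 is a receptor for ephrin-A ligands, ITGBL1 is a secreted protein with integrin-like EGF repeats, and SFRP4 is a secreted Wnt antagonist. COL14A1 sits on the surface of collagen fibrils, and ADAMTS3 cleaves procollagen and takes part in VEGF-C processing. Mesothelial cells are the flat lining cells of body cavities, marked by the transcription factor WT1 and the membrane mucin MUC16.

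The ganglia library held 11101393 UMIs in 4706 barcodes, of which 4509 had 200 or more genes and no more than 5% of UMIs from mitochondrial genes. The median kept nucleus had 1543 UMIs. The 94 selected nuclei held 215350 UMIs, with a median of 1883 UMIs and a range of 531 to 13466, against a median of 1539 UMIs in the other 4415 nuclei. The deepest selected nucleus gave 6.25% of their UMIs. Levels are summed counts of a group per 1000000 of its UMIs (CPM). With 1 library, nuclei are not replicates, so there is no test and no p-value. Intervals are exact 95% intervals on the counts and cover counting error only. A gene was called higher or lower when its summed level differed at least 2-fold, among genes with at least 20 UMIs measured or expected in the first-named group. In summed levels, fewer expressing nuclei and less RNA per nucleus cannot be told apart.

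The values that chose the nuclei are a description. Of the 94 nuclei, 58 had exactly 2 identity genes, 24 had 3, 7 had 4, 2 had 5 and 3 had all 6. C7 had 726 UMIs in 53 nuclei, or 3371 CPM against 370 CPM in the other nuclei. Epha3 had 107 UMIs in 38 nuclei, or 497 CPM against 48.7 CPM in the other nuclei. C7 and Epha3 were found together in 23 of the 94 nuclei, C7 and Itgbl1 in 30, and Col14a1 and Epha3 in 22. In most selected nuclei the 2 genes of the working name were thus not both detected, which does not show that they were absent. The 58 nuclei just inside the threshold, with exactly 2 identity genes, had 2179 CPM of C7, 296 CPM of Epha3 and 505 CPM of Itgbl1. The 170 nuclei just outside it, with exactly 1, had 416, 63.5 and 222 CPM of the same 3 genes.

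UMIs of these genes were also found in nuclei that should lack them. In 182 noradrenergic nuclei a UMI of C7 was present in 21.4%, of Itgbl1 in 30.2%, of Col14a1 in 11.5% and of Epha3 in 6.04%, at a median depth of 6257 UMIs. With every nucleus thinned to 900 UMIs the shares were 38.6% in selected and 4.62% in noradrenergic nuclei for C7. In selected against noradrenergic nuclei they were 31.3% against 0.578% for Epha3, 42.2% against 5.78% for Itgbl1, and 30.1% against 3.47% for Col14a1. Thinning left out 11 of the 94 selected and 9 of the 182 noradrenergic nuclei. The higher shares in selected nuclei follow from the rule, which chose them for these genes. A rule of 2 genes with a UMI can take in nuclei whose UMIs are free RNA, and how many was not measured.

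The groups were split by clustering on genes outside the rule, so the marker differences given here describe that split. Of 15 mesothelial markers, the 32 nuclei of the Muc16 cluster had 1 to 63 UMIs each with a median of 16.5, and 31 of them had 3 or more. The 52 nuclei of the Sult5a1 cluster had 0 to 6 UMIs with a median of 0, and 1 of them had 3 or more. The 10 remaining nuclei had at most 1. Summed over the list, the 15 markers stood at 295 CPM in the 52 nuclei and at 7137 CPM in the 32 nuclei, against 381 CPM in the other 4415 nuclei. The 98 nuclei chosen for Wt1, Muc16 and related genes outside the selection had 6589 CPM. Identity gene UMIs ran the other way, with a median of 9 per nucleus and a range of 2 to 199 in the 52 nuclei and a median of 3 and a range of 2 to 24 in the 32 nuclei. The 2 groups kept apart when the rule's genes were put back, with 52 and 32 nuclei in the 2 largest clusters. At resolutions 0.5 and 2.0 they never shared a commonest cluster. Resolution 2.0 kept 48 of the 52 and 23 of the 32 nuclei in the commonest cluster of their group.

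**Figure D1:**
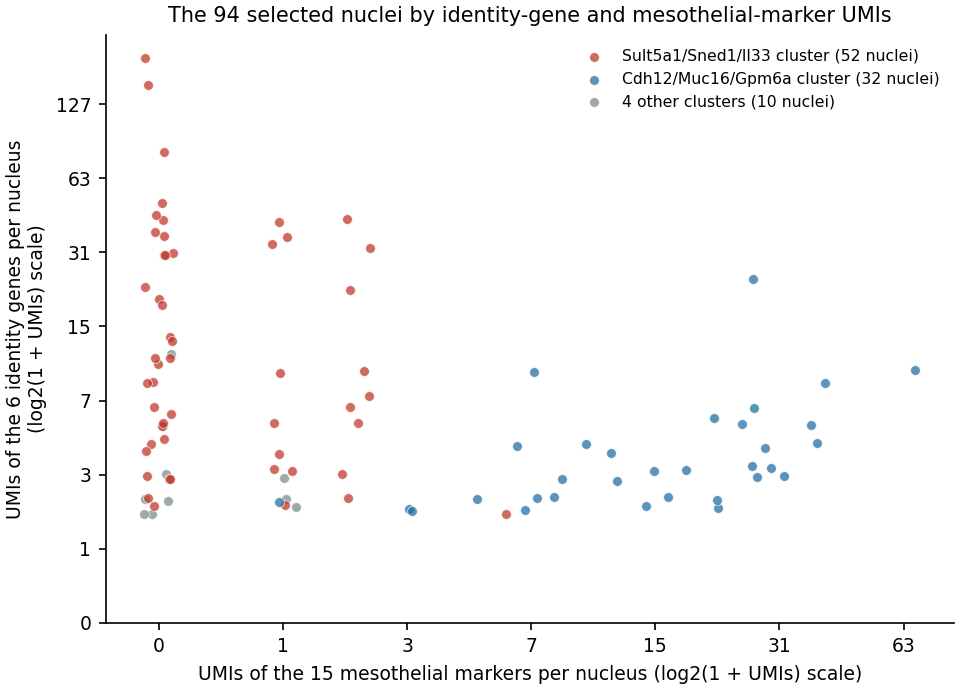
Each point is 1 of the 94 selected nuclei, with UMIs of the 15 mesothelial markers on the x axis and UMIs of the 6 identity genes on the y axis, both as log2(1 + UMIs). The 52 nuclei of the Sult5a1 cluster sit at 0 to 6 mesothelial UMIs, the 32 of the Muc16 cluster at 1 to 63, and the 10 others at 0 or 1.

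The identity genes fell unevenly between these groups. C7 had 6301 CPM in the 52 nuclei and 172 CPM in the 32 nuclei, with 704 of its 726 UMIs in the first group. In the 52 nuclei C7 ran from 0 to 159 UMIs with a median of 2, and in the 32 nuclei from 0 to 3 with a median of 0. Itgbl1 had 1844 CPM in the 52 nuclei and 34.4 CPM in the 32 nuclei, where only 2 nuclei held a UMI. Pairing of C7 with Itgbl1 therefore lay in the Sult5a1 cluster, with 29 nuclei there and 1 in the Muc16 cluster. Epha3 was closer, with 644 CPM in the 52 nuclei and 355 CPM in the 32 nuclei (ratio 1.81, interval 1.18 to 2.86). Col14a1, at 985 CPM in the 52 and 733 CPM in the 32 nuclei (1.34, 0.978 to 1.86), and Adamts3, at 349 CPM in the 52 and 309 CPM in the 32 nuclei (1.13, 0.674 to 1.92), had intervals that included a ratio of 1. Of the 32 nuclei, 26 carried Col14a1, 15 Epha3, 15 Adamts3 and 12 C7, and 27 of the 32 had exactly 2 identity genes.

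Against all other nuclei, the 94 nuclei taken as a whole had 459 of 3132 measured genes at least 2-fold higher (14.7%) and 479 at least 2-fold lower (15.3%), around an all-gene median log2 ratio of 0.03. The genes that led this comparison belonged to both clusters. Gpr39, a zinc-sensing receptor, stood at 683 CPM in the 94 nuclei against 49.6 CPM in the other nuclei (13.8-fold, 11.4 to 16.6). In the same order, Muc16 stood at 673 against 55.5 CPM, and Wt1 at 604 against 66.7 CPM. Col1a1, a chain of type I collagen, stood at 840 against 103 CPM (8.17-fold). Muc16 and Wt1 came from the 32 nuclei and Col1a1 from the 52, while Gpr39 was present in both, at 600 CPM in the 52 nuclei and 916 CPM in the 32 nuclei, although 41 of the 67 UMIs in the first group were in 1 nucleus. Ror1, a receptor for WNT5A, had near-equal levels, with 1620 CPM in the 52 nuclei and 1569 CPM in the 32 nuclei (1.03, 0.822 to 1.30), against 225 CPM in the other nuclei.

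**Figure D2:**
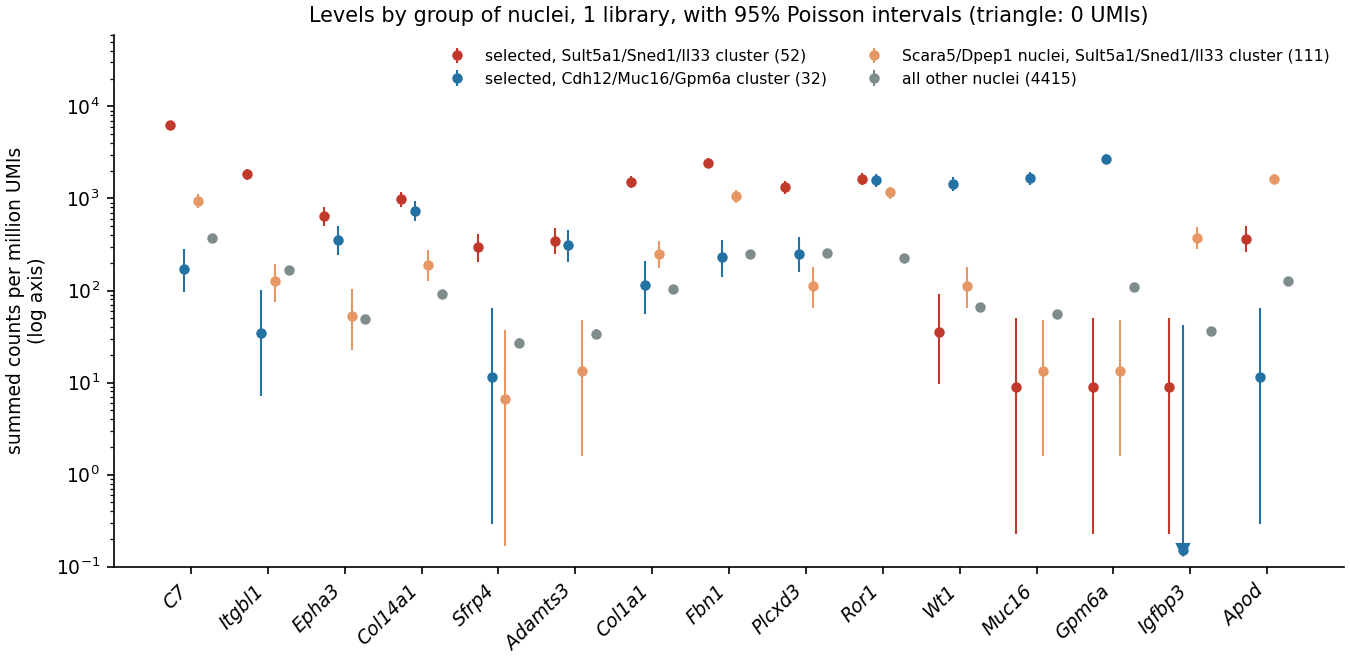
Summed level of 15 genes in CPM on a log axis, with exact 95% Poisson intervals, in the 52 and 32 selected nuclei, in 111 Scara5 and Dpep1 nuclei of the Sult5a1 cluster and in the other 4415 nuclei; a triangle marks 0 UMIs. C7 and Itgbl1 are far higher in the 52 nuclei than in the 32, Wt1, Muc16 and Gpm6a are the reverse, and Ror1 is level between them.

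Between the 2 selected groups, 349 of 1614 measured genes were at least 2-fold higher in the 52 nuclei (21.6%) and 388 at least 2-fold lower (24.0%). Since the groups were split by clustering on these genes, the differences are a description of the split. Of 18 stromal transcription factor genes measured, 12 were at least 2-fold higher in the 52 nuclei and 1 lower. Foxp2 had 1915 CPM in the 52 nuclei and 22.9 CPM in the 32 nuclei, Prrx1, a mesenchymal factor, had 832 CPM in the 52 and 11.5 CPM in the 32, and Ebf1, a factor of fat precursors and B cells, had 4126 CPM in the 52 and 206 CPM in the 32. Wt1 had 35.8 CPM in the 52 nuclei and 1443 CPM in the 32 nuclei. Zfpm2, a GATA cofactor, had 1378 CPM in the 52 and 3689 CPM in the 32 nuclei (0.374, 0.306 to 0.454). The receptor Pdgfra, a fibroblast marker, was found in 21 of the 52 nuclei and 1 of the 32.

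Of 11 guidance genes measured, 2 were at least 2-fold higher in the 52 nuclei and 6 lower. Slit3, a secreted repellent for axons, had 6184 CPM in the 52 nuclei, with a median of 6.5 UMIs, and 676 CPM in the 32 nuclei, with a median of 1. Plxna4, a semaphorin co-receptor, had 71.6 CPM in the 52 nuclei and 3127 CPM in the 32 nuclei, where 31 nuclei held it. Efna5, which codes for an ephrin-A ligand of EPHA receptors, had 537 CPM in the 52 nuclei and 3918 CPM in the 32 nuclei, where every nucleus held 3 to 59 UMIs. The receptor gene Epha3 was found in 15 of the 32 nuclei, but it is an identity gene of the rule. Its presence beside Efna5 in these nuclei follows in part from the selection and is not read as a trait of the Muc16 cluster. The cadherin gene Cdh12 had 206 CPM in the 52 and 3013 CPM in the 32 nuclei, and the membrane glycoprotein gene Gpm6a 8.95 CPM in the 52 and 2681 CPM in the 32. Flrt2, an adhesion and guidance gene, had 448 CPM in the 52 nuclei and 4834 CPM in the 32 nuclei, of whose 422 UMIs 197 were in a single nucleus. Of 9 measured genes of the FGF, PDGF, VEGF and EGF families, 3 were at least 2-fold higher in the 52 nuclei and 3 lower. Fgf1, at 17.9 CPM in the 52 and 733 CPM in the 32, and Pdgfd, at 170 CPM in the 52 and 1294 CPM in the 32 (0.131, 0.0763 to 0.215), were lower in the 52 nuclei, while Fgf7 had 29 UMIs in the 52 nuclei and 0 in the 32.

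The 32 nuclei resembled the rest of their own cluster in the genes that lead it. Against the 228 other nuclei of the Muc16 cluster, Wt1 had 1443 CPM in the 32 against 1134 CPM in the 228 (1.27, 1.04 to 1.55), Gpm6a 2681 against 1758 CPM (1.53, 1.31 to 1.76) and Muc16 1650 against 1074 CPM (1.54, 1.27 to 1.85). Median depth was 2422.5 UMIs in the 32 nuclei and 1607.5 UMIs in the 228. The collagen genes Col3a1 and Col1a2, of the rule but outside the identity count, were close as well: Col3a1 had 1959 against 1679 CPM (1.17, 0.984 to 1.38) and Col1a2 had 390 against 348 CPM (1.12, 0.751 to 1.63). Col14a1 at 733 against 186 CPM and Epha3 at 355 against 75.3 CPM differed by more, as the rule required.

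**Figure D3:**
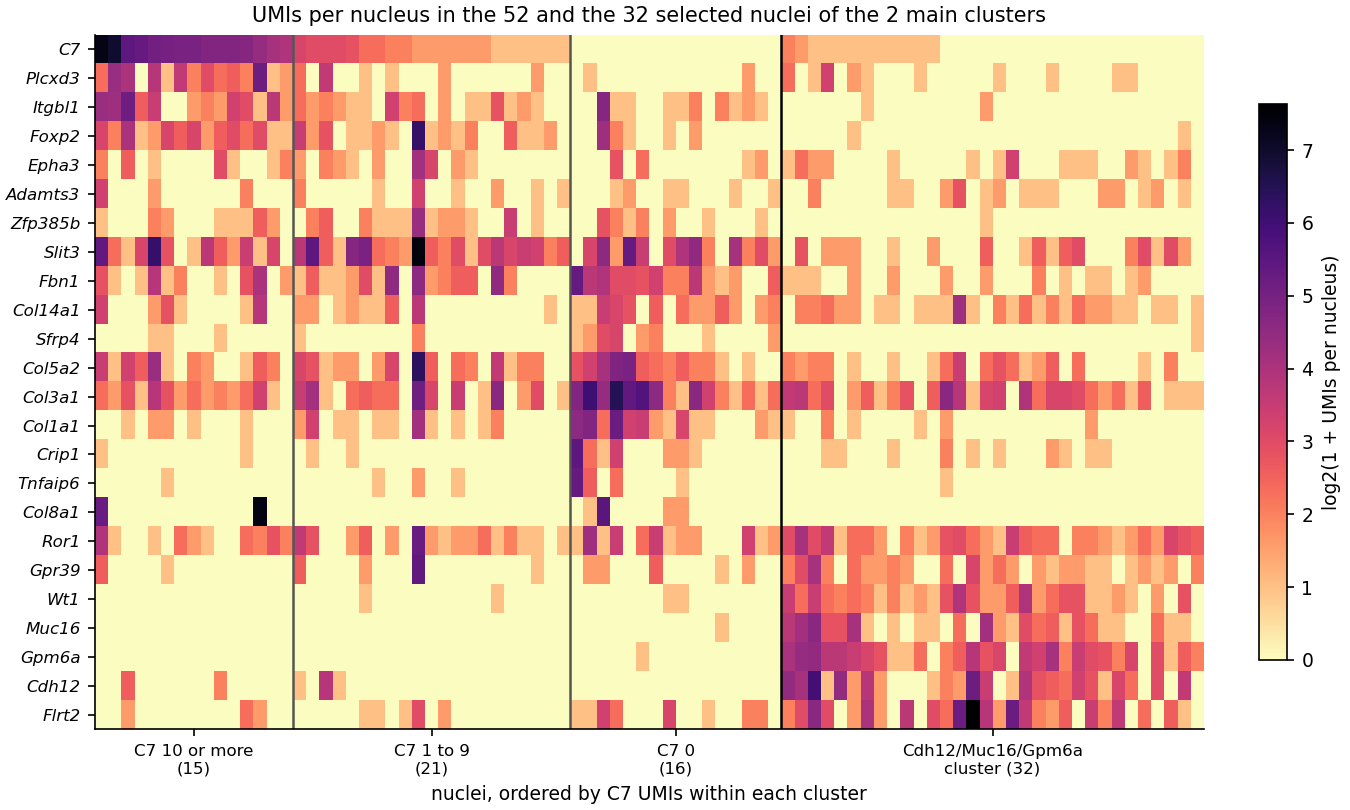
UMIs of 24 genes as log2(1 + UMIs) in 84 selected nuclei, 1 column each: the 52 nuclei of the Sult5a1 cluster, ordered by C7 into 15 nuclei with 10 or more UMIs, 21 with 1 to 9 and 16 with 0, and then the 32 nuclei of the Muc16 cluster. Mesothelial genes are nearly empty in the 52 columns, Plcxd3 lies mostly with high C7, and Col1a1 and Col3a1 are heaviest in the columns without C7.

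The 52 nuclei were compared with Scara5 and Dpep1 nuclei, chosen by the mirror rule (at least 2 genes of the Scara5 set, at most 1 identity gene, the same collagen and exclusion criteria). The library held 198 of them, 111 in the Sult5a1 cluster and 72 in a neighbouring cluster led by Opcml, Pi16 and Creb5. All 94 selected nuclei against these 198 had 317 of 2984 measured genes at least 2-fold higher (10.6%) and 255 at least 2-fold lower (8.55%), a comparison that mixes both selected groups. Within the Sult5a1 cluster alone, the 52 nuclei against the 111 had 181 of 1414 measured genes at least 2-fold higher (12.8%) and 131 at least 2-fold lower (9.26%). Median depth was 1586.5 UMIs in the 52 nuclei and 1096 UMIs in the 111. The deepest nucleus gave 12.1% of the UMIs of the 52. Of the 52 nuclei, 42 carried 1 gene of the Scara5 set and 10 carried none. The Sult5a1 cluster held 254 nuclei with at least 2 identity genes, and 172 of them also carried at least 2 genes of the Scara5 set. The 52 and the 111 nuclei are thus cut by rule from a cluster in which the 2 gene sets overlap.

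Collagen genes were higher in the 52 nuclei. Of 16 fibrillar and associated collagen genes outside the rule, 6 were measured and all 6 were at least 2-fold higher, with a median log2 ratio of 2.06 beside a median near 0 over all genes. Col1a1 had 1513 CPM in the 52 nuclei against 251 CPM in the 111 (6.03-fold, 4.22 to 8.81). Col5a2 and Col5a1, the chains of type V collagen that set fibril diameter, had 2792 against 891 CPM (3.13-fold, 2.55 to 3.86) and 519 against 145 CPM (3.58-fold, 2.15 to 6.13). Col6a3, a chain of the microfibrillar type VI collagen, had 483 against 99.0 CPM (4.88-fold, 2.72 to 9.31). Col8a1 also counted among the 6, but 98.0% of its 251 UMIs came from 3 nuclei. The rule asked for at least 1 gene of Col1a2, Col3a1, Dcn and Pdgfra in both groups. Of those, Col3a1 had 4958 against 1426 CPM (3.48-fold, 2.97 to 4.09) and Dcn had 1244 against 1908 CPM (0.652, 0.529 to 0.801), so the collagen and the small proteoglycan did not move together.

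Other matrix groups followed with smaller medians. Elastic fibre genes had 4 of 6 measured members at least 2-fold higher, while at a minimum of 5 UMIs the list's median log2 ratio was -0.11. Fbn1, the core of microfibrils, had 2452 CPM in the 52 nuclei against 1050 CPM in the 111 (2.34-fold, 1.92 to 2.86), Mfap5, a microfibril-associated glycoprotein, 725 against 211 CPM (3.43-fold, 2.25 to 5.34), and Eln, elastin, 528 against 152 CPM (3.48-fold, 2.12 to 5.90). Proteoglycan and hyaluronan genes had 5 of 8 higher with a median of 1.28, among them Vcan, versican, at 832 against 343 CPM (2.42-fold, 1.71 to 3.47) and Bgn, biglycan, at 385 against 125 CPM (3.07-fold, 1.75 to 5.57). Collagen processing genes had 3 of 6 higher with a median of 0.87. Plod2, the lysyl hydroxylase of collagen telopeptides, had 698 against 218 CPM (3.21-fold, 2.11 to 4.97), while Adamts2, a procollagen N-proteinase, had 528 against 594 CPM (0.889, 0.629 to 1.25) and Loxl1, a crosslinking oxidase, 251 against 205 CPM (1.22, 0.708 to 2.11). Adventitial universal fibroblast genes, which include Mfap5 and Fbn1, had 3 of 6 higher with a median of 0.81. Against all 198 Scara5 and Dpep1 nuclei, which include the 72 of the Pi16 cluster, the 52 nuclei had 3 of 10 measured genes of that list higher and 5 lower, with a median of -0.43. Basement membrane genes had 1 of 8 higher and 1 of 8 lower with a median of 0.07, close to the median over all genes.

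Matricellular glycoproteins had 5 of 11 higher with a median of 0.39, and metalloproteinases and inhibitors 4 higher and 2 lower of 11 with a median of 0.78. BMP and TGF-beta family genes had 2 of 11 higher and none lower, with a median of 0.22. IGF axis and hormone receptor genes had 2 of 13 higher and 1 lower, with a median of -0.18. Over all measured genes 12.8% were higher. From these 2 lists, Fstl1, a secreted follistatin-like protein, had 1477 CPM in the 52 nuclei against 462 CPM in the 111 (3.20-fold, 2.40 to 4.29). Igfbp7, an IGF-binding protein, had 993 against 482 CPM (2.06-fold, 1.52 to 2.81). Gas6, the ligand of TAM receptors, had 465 against 99.0 CPM (4.70-fold, 2.61 to 8.99). Among Wnt genes, 2 of 5 measured were higher and none lower: Ror2 had 286 against 92.4 CPM (3.10-fold, 1.61 to 6.29) and the co-receptor Lrp6 had 465 against 198 CPM (2.35-fold, 1.47 to 3.82). Slit3, at 6184 against 4865 CPM (1.27-fold, 1.14 to 1.41), and Pdgfra, at 421 against 482 CPM (0.873, 0.592 to 1.28), did not reach 2-fold. The alarmin gene Il33 had 510 against 818 CPM (0.623, 0.447 to 0.860).

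Genes with a low level in the 52 nuclei came from several groups. Igfbp3, an IGF-binding protein, had 1 UMI, or 8.95 CPM, against 376 CPM in the 111 nuclei (ratio 0.0238, 0.000592 to 0.138). Cxcl13, a B cell chemokine, had 3 UMIs, or 26.9 CPM, against 343 CPM (0.0782, 0.0156 to 0.242). Both genes were thus close to empty in the 52 nuclei. Apod, apolipoprotein D, had 367 CPM in the 52 nuclei against 1630 CPM in the 111 (0.225, 0.158 to 0.314), Nova1, an RNA-binding protein gene, 125 against 555 CPM (0.226, 0.119 to 0.401), and Eya4, a transcriptional coactivator gene, 62.7 against 337 CPM (0.186, 0.0712 to 0.412). Of 4 neurotrophic factor and receptor genes measured, 1 was at least 2-fold higher, Gas6, and 2 were lower, with Lifr at 179 against 587 CPM (0.305, 0.178 to 0.499) and Ntrk2 at 116 against 323 CPM (0.360, 0.179 to 0.673).

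The adipogenic lineage list leaned the same way. None of its 8 measured genes was at least 2-fold higher in the 52 nuclei than in the 111 and 4 were at least 2-fold lower, with a median log2 ratio of -0.92. Pparg, the master regulator of fat cell differentiation, had 188 CPM in the 52 nuclei against 416 CPM in the 111 (0.452, 0.262 to 0.751), and Fabp4, a fatty acid binding protein, had 313 against 805 CPM (0.389, 0.259 to 0.571). Ebf1 had 4126 against 6707 CPM (0.615, 0.550 to 0.688). Adipocyte markers, a separate list, summed to 412 CPM in the 52 nuclei, 766 CPM in the 111 and 3268 CPM in all other nuclei, and their part in this result was not tested. Endoneurial fibroblast genes, which include Apod, summed to 1530 CPM in the 52 nuclei against 3406 CPM in the 111.

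Complement genes other than C7 did not follow C7. Of the 25 listed, 5 were measured between the 52 and the 111 nuclei, none was at least 2-fold higher and 1 was lower, with a median log2 ratio of -0.59. C3, the central complement component, had 134 CPM in the 52 nuclei against 337 CPM in the 111 (0.399, 0.208 to 0.720), and stood at 1168 CPM in the 32 nuclei. Serping1, the C1 inhibitor, had 403 against 383 CPM (1.05, 0.697 to 1.58). Against all other nuclei, the whole selection had 7 of 9 measured complement genes at least 2-fold higher and 1 lower, with a median of 1.92.

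**Figure D4:**
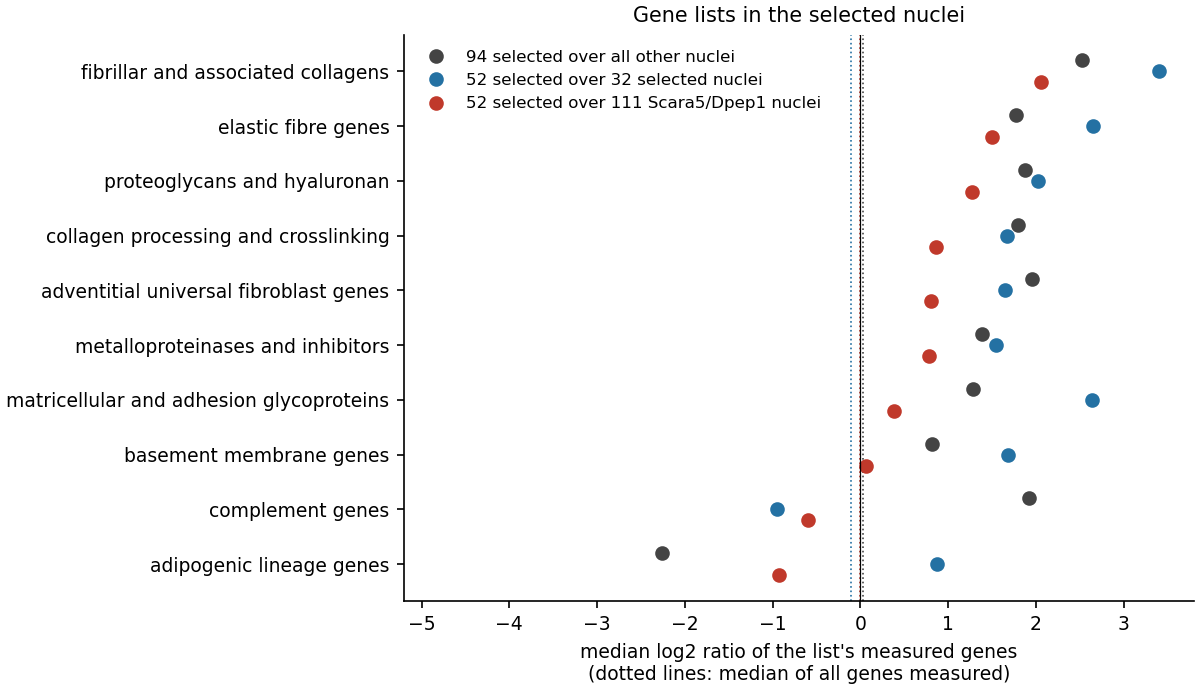
Median log2 ratio of the measured genes of 10 lists in 3 comparisons: all 94 selected nuclei over the other 4415, the 52 selected nuclei over the 32, and the 52 over the 111 Scara5 and Dpep1 nuclei; dotted lines mark the medians of all genes. Fibrillar collagens reach 2.06 against Scara5 and Dpep1 nuclei, basement membrane genes stay at 0.07, and complement and adipogenic genes lie below 0 at -0.59 and -0.92.

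C7 separated nuclei within the 52. Its UMIs were concentrated: 15 nuclei with 10 or more held 637 of 704 UMIs, 21 nuclei held 1 to 9 each, and 16 held 0. These limits were set after the values were seen. Median depths were 1875, 1381 and 1814.5 UMIs in the high, low and zero nuclei, so depth did not order them. Plcxd3, a phospholipase C-like gene, had 123 UMIs in 14 of the 15 C7-high nuclei and 3 UMIs in 2 of the 16 without C7, or 3981 CPM against 79.6 CPM, with 487 CPM in the low nuclei (high over zero 50.1, 16.7 to 246). It was also the gene with an 11.7-fold higher level (7.08 to 20.7) in the 52 nuclei than in the 111, at 1316 CPM in the 52 against 112 CPM in the 111, although the noradrenergic nuclei carried 785 CPM of it. Nox4, an oxidase gene of the Scara5 set, had 2946 CPM in C7-high nuclei against 398 CPM in those without C7 (7.41, 4.26 to 13.8). Its 91 UMIs in C7-high nuclei lay in 7 of the 15, with 42 of them in 1 nucleus. Itgbl1 had 4014 CPM in C7-high nuclei against 1034 CPM in those without C7 (3.88, 2.69 to 5.71), and Foxp2 2492 against 663 CPM (3.76, 2.37 to 6.16). A single nucleus without C7 held 25 Itgbl1 and 18 Foxp2 UMIs. Dcn had 2298 against 636 CPM (3.61, 2.25 to 6.00). Epha3, at 680 against 345 CPM, had an interval from 0.942 to 4.29 and so was not separated from a ratio of 1.

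The collagen genes Col1a1 and Col3a1 ran opposite to C7. Col1a1 had 227 CPM in C7-high nuclei, with a UMI in 5 of 15, against 3288 CPM in nuclei without C7, with a UMI in 13 of 16, and the ratio was 0.0689 (0.0271 to 0.146). Col3a1 had 1910 CPM in C7-high nuclei against 9626 CPM in those without C7 (0.198, 0.148 to 0.262), and the low nuclei lay between at 3061 CPM. Fbn1 had 1586 against 3235 CPM (0.490, 0.344 to 0.688), Mfap5 453 against 1193 CPM (0.380, 0.192 to 0.704) and Vcan 388 against 1379 CPM (0.282, 0.137 to 0.535). Sfrp4 had 97.1 against 690 CPM, so this identity gene lay mainly in nuclei without C7. The level of Col1a1 in C7-high nuclei was close to the 251 CPM of the 111 Scara5 and Dpep1 nuclei. Col5a2, at 1910 CPM, and Fbn1 were above the 891 and 1050 CPM of those 111 nuclei in the C7-high nuclei too. Ror1 had 1262 against 1618 CPM (0.780, 0.508 to 1.19) and Col14a1 1036 against 1352 CPM (0.766, 0.476 to 1.22). Requiring 2 identity genes means that nuclei without C7 had to carry 2 of the other 5.

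Most C7 of the library lay outside the selection. The selected nuclei held 16.1% of the 4508 C7 UMIs, and the Sult5a1 cluster as a whole held 88.9%. Of 110 nuclei with 10 or more C7 UMIs, 103 were in that cluster, and 15 (13.6%) were selected. Of the 110, 83 (75.5%) carried 2 or more genes of the Scara5 set, 80 carried Nox4 and 79 carried Scara5 itself. The criterion of at most 1 such gene left out these 83, and 41 of the 110 also carried an excluded gene. Compared with the 88 unselected C7-high nuclei of the cluster, the 15 selected had 4014 CPM of Itgbl1, against 2171 CPM in the 88 (1.85, 1.51 to 2.25). By the same comparison they had 680 against 648 CPM of Epha3 (1.05, 0.632 to 1.66) and 3981 against 2382 CPM of Plcxd3 (1.67, 1.37 to 2.03). Col1a1 stood at 227 against 354 CPM and Col3a1 at 1910 against 1754 CPM. Scara5, which the rule limits, had 421 against 998 CPM.

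A few deep nuclei carried some of the inflammatory genes. Ccl2, a monocyte chemokine, had 35 UMIs in 3 of the 52 nuclei, 27 of them in 1 nucleus. Ccl7, a related chemokine, had 27 UMIs in 3 nuclei, 23 of them in the same nucleus. That nucleus, the second deepest with 5552 UMIs and no C7, also held 39 of the 54 UMIs of Tnfaip6, a hyaluronan-binding protein gene. Aldh1a2, a retinoic acid synthesis gene, had all 48 UMIs in the deepest nucleus, which also held 73 of the 214 Foxp2 UMIs. These genes are levels of 1 or 2 nuclei and not of the group. Foxp2 remained 3.47-fold and Col1a1 4.67-fold higher than in the 111 nuclei without the 3 deepest nuclei, and Plcxd3 was 14.8-fold higher.

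Endothelial, macrophage, noradrenergic neuron and skeletal muscle lists were low in the selected nuclei. Glial and mural lists were level only over the 94 nuclei as a whole. Against the other 4415 nuclei, summed endothelial markers had 353 against 1474 CPM, macrophage markers 618 against 1557 CPM, noradrenergic neuron markers 748 against 3093 CPM, and skeletal muscle markers 92.9 against 1350 CPM. The rule excluded 1 defining gene of the first 3 of these types. Glial markers, at 548 against 529 CPM, and mural cell markers, at 1184 against 1075 CPM, were near equal. The glial genes stood at 403 CPM in the 52 nuclei and 321 CPM in the 32. Of their 118 UMIs, 45 lay in the 52 nuclei, 28 in the 32 and the rest in the 10 other nuclei. Cdh19 had 32 UMIs in the 94 nuclei, but 1 in the 52 and 1 in the 32. The mural genes stood at 1853 CPM in the 52 nuclei and 149 CPM in the 32. Of their 207 UMIs in the 52 nuclei, 124 were of Ebf2, which the adipogenic lineage list also holds. Abcc9 had 49 and Pdgfrb 23, while Notch3, Higd1b and Trpc6 had 0 UMIs in the 94 nuclei. The mural sum is therefore not read as a mural identity. Epineurial fibroblast genes were higher in the 94 nuclei, at 1853 against 458 CPM, with all 5 measured genes at least 2-fold higher. Against the 198 Scara5 and Dpep1 nuclei, none of 6 measured epineurial genes was 2-fold higher and 1 was lower. Myofibroblast and contractile genes summed to 933 against 434 CPM in the other nuclei, with 2 of 4 measured genes higher and none lower. Of the 10 nuclei outside the 2 main clusters, 4 lay in the Opcml and Pi16 cluster, 3 in a cluster led by Cdh19, 2 in a cluster led by Ptgds, Thbs4 and Hcn4, and 1 in a cluster led by Myh11. These 10 had 429 CPM of C7 in 7 UMIs and 245 CPM of Epha3 in 4 UMIs.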

How the data were processed

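UMI counts per gene and barcode were used as deposited by the authors, whole numbers with no normalization, written by Cell Ranger 7.1.0 per the file headers. The submitters' processing notes name GRCm39, R 3.6.0 and Seurat 5.1.0 with no role for each. The ganglia nuclei used 10x 3' v3.1 chemistry, per the labels. The filter was 200 or more genes, and a mitochondrial share of UMIs up to 5% in nuclei and 20% in skin cells. Counts were summed per group and scaled to CPM, with exact Poisson intervals on levels, exact conditional binomial intervals on ratios and Clopper-Pearson intervals on shares. A gene at 0 was set to a floor of 3 counts in list medians.

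Nuclei were clustered with scanpy 1.11.5 (2000 variable genes, 30 components, 15 neighbours, Leiden resolution 1.0) after the 19 rule genes were removed. Scrublet at an expected 6% called 2 doublets (0.0444%), too few to have worked, none among the selected nuclei. No barcode of the ganglia library was shared with a skin library. The scripts were tested on simulated data. The members and the 40 gene lists were chosen with earlier results of these data known. Genes named were the rule's genes, the 20 highest ratios over other nuclei, the 12 highest and lowest against Scara5 and Dpep1 nuclei, the leading genes of each list and the 8 most variable. The C7 limits, the 182 noradrenergic nuclei (at least 2 of Th, Dbh, Slc6a2 and Slc18a2, in the 2 clusters that hold most of them) and the comparisons within a cluster were added after seeing the data. Alternatives changed the rule, the UMI minimum, the depth filter, the averaging, the clustering and the deepest nuclei. Results of a few genes are not reported here.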

Additional observations from a re-analysis of the deposited data

How the results depend on the processing

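With 1 library per group every value is a description, and the depth of 94 nuclei limits genes under about 20 UMIs. The selected share of 2.08% became 0.798% with at least 3 identity genes (36 nuclei) and 0.688% with none of the Scara5 set (31 nuclei). It became 3.95% when nuclei with Adipoq, Pecam1, Ptprc or Dbh were no longer excluded (178 nuclei). Counts of genes at least 2-fold higher and lower moved with the number of genes tested. Against the other nuclei they were 459 and 479, and became 1170 and 1428 at a minimum of 5 UMIs, 217 and 192 at 50 UMIs, and 263 and 208 with at least 3 identity genes. Against Scara5 and Dpep1 nuclei they were 317 and 255, and became 1159 and 1021, 124 and 91, and 153 and 99 under the same settings. When nuclei with Adipoq, Pecam1, Ptprc or Dbh were no longer excluded, these counts became 864 and 678. With only the 52 nuclei of the Sult5a1 cluster, 292 genes were lower than in the other nuclei, and 173 were higher and 146 lower than in Scara5 and Dpep1 nuclei. For the 52 against the 111 nuclei they were 181 and 131, and became 892 and 858 at 5 UMIs, 58 and 34 at 50 UMIs, 105 and 75 without the 3 deepest nuclei, and 69 lower with at least 3 identity genes.

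Some log2 ratios changed sign, and the cause was not tested beyond which nuclei hold the UMIs. With only the 52 nuclei, ratios over the other nuclei were -2.63 for Muc16, -3.61 for Gpm6a, -0.90 for Wt1, -1.20 for Pcdh15, -1.65 for Col6a5 and -0.00 for C3. Over Scara5 and Dpep1 nuclei they were -2.70 for Muc16 and -0.48 for Plxna4. For the 52 against the 111 nuclei, Ccl2 was -0.50 with at least 3 identity genes, Aldh1a2 was -1.49 without the deepest nucleus, and Ccl2 was -0.21 and Aldh1a2 -1.33 without the 3 deepest. The elastic fibre median was -0.11 at a minimum of 5 UMIs, where more low genes were counted. A change of sign was counted only where the reported log2 value was at least 1 either way, so smaller values could change sign uncounted. Of 430 alternative values of gene ratios, 300 moved by less than the counting interval or the set limit. A further 118 moved by more, and 12 were counted as changed in sign. For the 270 list medians these counts were 226, 43 and 1. No paired analysis was possible because each group is 1 library and no test was made.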

Other observations

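Skin cells met the same rule rarely. In the skin library of mice given RHS and MC903, 11 of 13068 kept cells met it (0.0842%, exact interval 0.0420% to 0.151%), and in the skin library of mice given MC903, 14 of 12723 did (0.110%, 0.0602% to 0.185%). These cells had been selected with CD45 beads, and C7 had 0 UMIs in both sets.

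A further 135 ganglia nuclei met every criterion but the limit on the Scara5 set, 103 of them in the Sult5a1 cluster, and they held 1675 C7 UMIs, or 37.2% of the library's. Another 84 nuclei failed on the excluded genes alone, with a median of 3755 UMIs. Of these, 48 carried Dbh, 32 Pecam1, 23 Ptprc and 14 Adipoq.

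Hox genes gave 81 UMIs in 47 of the 94 selected nuclei. Paralogues 1 to 4 had 50 UMIs, 5 to 8 had 28 and 9 to 13 had 3. In CPM, paralogues 1 to 4 stood at 233 in the 52 nuclei and 218 in the 32 nuclei, against 123 in the other nuclei.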
